A study of Mus musculus with 6 samples.

Results

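The genes followed here are the 4 Janus kinases, Jak1, Jak2, Jak3 and Tyk2. They were taken by name from gene sums of the transcript files and from the deposited gene-level table, and they are 4 of 35896 annotated genes and 23 of 119414 transcripts. The samples are cultures of naive CD4+ T cells from C57BL/6 mice, 3 libraries labelled WT and 3 labelled Cul5 cKO, and the design text names spleens and lymph nodes as the source. Per the study's methods the WT mice were Cul5 fl/fl littermates without Cre and the Cul5 cKO mice were Cul5 fl/fl with CD4-Cre, so both groups carry the floxed allele and the deletion is driven in all T cells rather than in Th9 cells alone. All 6 cultures were kept for 48 h on anti-CD3 (2 µg/ml) with anti-CD28 (1 µg/ml) in the presence of IL-4 (20 ng/ml), blocking antibody to IFN-γ (10 µg/ml) and TGF-β (2.5 ng/ml), the conditions that steer CD4+ T cells towards IL-9-producing Th9 cells. The naive cells for such cultures came, per the study, from mice 8 to 10 weeks of age. No source says whether the 3 replicates of a group came from separate mice, so p-values measure the spread between these samples, which may be technical.

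Janus kinases are tyrosine kinases that sit on the cytoplasmic tails of cytokine receptors, which have no kinase of their own. When a cytokine draws its receptor chains together, the kinases on them phosphorylate each other, the receptor and then the STAT transcription factors that dock there. In T cells, Jak1 pairs with Jak3 on receptors built with the common gamma chain, among them those for IL-2, IL-4 and IL-9, and Jak3 binds only that chain. Jak2 serves the IFN-γ and IL-12 receptors and the β common chain family, and Tyk2 serves the IL-12 and type I interferon receptors. Cul5 is the scaffold of a ubiquitin ligase whose SOCS-box adaptors, CIS and the SOCS proteins, recognise activated receptor and kinase complexes, so a comparison with Cul5 cKO cells asks here whether the RNA of the kinases differs. RNA alone was measured, not kinase protein or its phosphorylation.

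The libraries held 23111689 to 23454552 estimated reads, except WT replicate 3 with 3944803, and a floor of 3 counts equalled 0.759 CPM in that library and 0.128 to 0.133 CPM in the others. Floors cover counting error only. Cul5 RNA, which checks the labels, was at 64.4, 69.3 and 65 CPM in WT and 10.6, 14.2 and 13.1 CPM in Cul5 cKO samples. T cell markers were detected in all samples, and the summed CPM of the 7 markers lay between 1820 and 1870 in WT and between 1510 and 1560 in Cul5 cKO samples. All 7 had a negative log2 fold change, and the groups of 5 were lower in Cul5 cKO samples without overlap, beside 13.5% of all genes tested. Cd28 was the marker among these 7 that was called lower (log2 fold change -1.17, edgeR adjusted p = 0.0205, or 0.051 to 0.136 when 1 of replicates 1 and 3 of Cul5 cKO or 2 and 3 of WT was left out), whereas Cd4 had a log2 fold change of -0.02. Sums for other cells were low, from 14.5 to 55.6 CPM for 6 B cell genes, from 2.78 to 56.1 CPM for 8 myeloid genes, from 4.3 to 11.6 CPM for 2 CD8 genes, from 4.1 to 13 CPM for 4 NK cell genes and at most 2.67 CPM for 6 erythroid genes. In these lists the NK cell genes Ncr1 and Klra8 were at 0 in all libraries and Klrb1c was at most 0.253 CPM. The NK cell sum was thus nearly all Eomes (4.01 to 13 CPM). The highest B cell sum was in Cul5 cKO replicate 3 and the highest myeloid sum in Cul5 cKO replicate 2, where Mpo alone reached 39.8 CPM.

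In GRCm38, Jak1 (ENSMUSG00000028530) lies on the minus strand at chr4:101152367-101265282 and Jak2 (ENSMUSG00000024789) on the plus strand at chr19:29251828-29313080. Jak3 (ENSMUSG00000031805) lies on the plus strand at chr8:71676296-71690575 and Tyk2 (ENSMUSG00000032175) on the minus strand at chr9:21104068-21131243. The annotated coding transcripts of Jak2 that carried reads share a coding sequence of 3396 bases, and those of Jak3 share one of 3300 bases, so for these genes the transcripts differ only outside the coding part. For Tyk2 they differ within it. Tyk2-201 and Tyk2-206 use an exon at chr9:21123977-21124209 where Tyk2-203 uses chr9:21123977-21124140, which gives them 69 more coding bases (3621 against 3552), or 23 codons. The sequence across this junction is shown because it is the coding difference between the Tyk2 transcripts that the results below compare; capitals mark the 69 bases at chr9:21124141-21124209, read 5′ to 3′ on the minus strand, and lower case the 15 bases on either side.
Tyk2-201: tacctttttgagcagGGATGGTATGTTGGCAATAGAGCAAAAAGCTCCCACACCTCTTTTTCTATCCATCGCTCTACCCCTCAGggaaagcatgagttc
Tyk2-203: tacctttttgagcagggaaagcatgagttc

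Per unit of transcript length, the kinases stood in the same order, Jak1, Jak3, Jak2 and Tyk2, in all 6 libraries. Jak1 was at 125, 135 and 140 TPM in WT and 117, 106 and 97.8 TPM in Cul5 cKO samples, and Jak3 at 81.8, 86.2 and 78.5 TPM in WT and 97.7, 105 and 93 TPM in Cul5 cKO samples. Jak2 was at 32.8, 60.1 and 48.1 TPM in WT and 28.3, 56.5 and 54.3 TPM in Cul5 cKO samples. Tyk2 was at 21.4, 21.1 and 21.2 TPM in WT and 21.7, 17.6 and 16.7 TPM in Cul5 cKO samples. In WT the levels of neighbouring kinases in this order did not overlap, whereas in Cul5 cKO samples the ranges of Jak1 and Jak3 did. The mean TPM over all samples was higher than that of 90.3% of the tested genes for Jak1, 86.5% for Jak3, 73.2% for Jak2 and 52.7% for Tyk2.

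**Figure D1:**
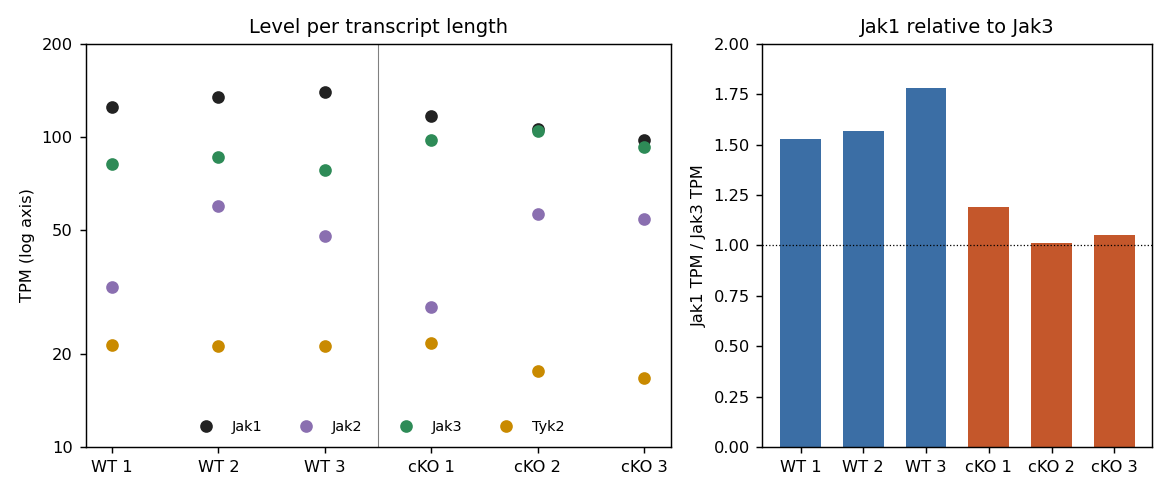
Left, TPM (log axis) of the 4 Janus kinases in each of the 3 WT and 3 Cul5 cKO (cKO) samples; right, the TPM of Jak1 divided by that of Jak3 in the same samples, with a dotted line at 1. The order Jak1, Jak3, Jak2, Tyk2 holds in each sample, and the ratio lies between 1.53 and 1.78 in WT and between 1.01 and 1.19 in Cul5 cKO samples.

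No Janus kinase was called differentially expressed: 0 of 4 had an adjusted p under 0.05 in edgeR's quasi-likelihood test, where 1.03% of the 12925 genes tested did. At an unadjusted p under 0.05 there were 2 of 4, Jak1 and Jak3, against 21.3% of all genes. These were also the kinases whose groups did not overlap, Jak1 lower and Jak3 higher in Cul5 cKO cells. Groups that did not overlap were found for 27.5% of all genes tested, 14% higher and 13.5% lower. DESeq2 called 1 of the 4, Jak3, with 3.35% of the 22353 genes to which it gave a p-value. Its own filter left part of these genes without an adjusted p, so the share among genes that could be called was higher. limma's voom with sample quality weights called both Jak1 and Jak3 with 9.74% of its genes. The median log2 fold change of the 4 kinases was -0.07, beside -0.01 for all genes.

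**Figure D2:**
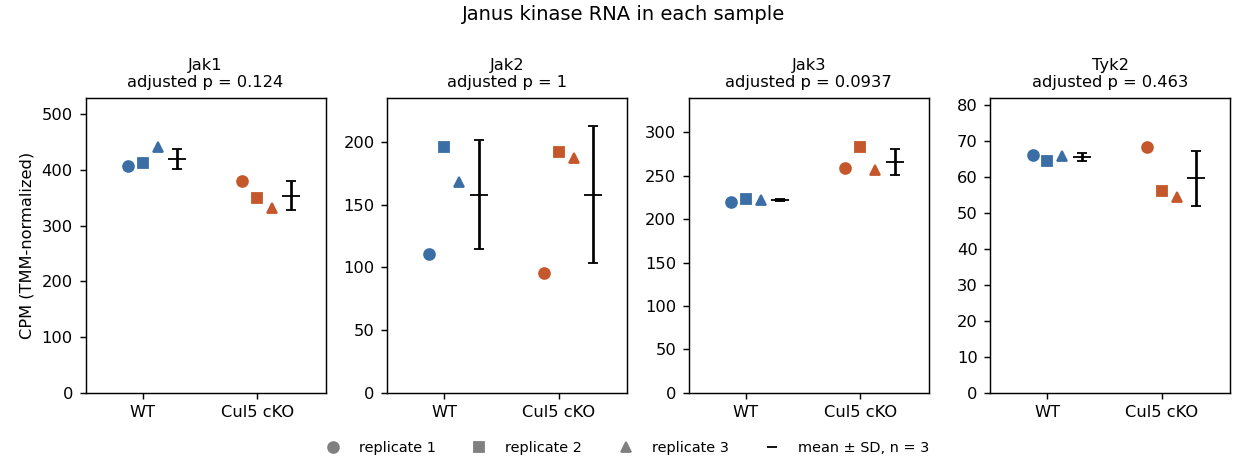
TMM-normalized CPM of each Janus kinase in the 3 WT (blue) and 3 Cul5 cKO (orange) samples, with the symbol giving the replicate number, the bar the mean ± SD (n = 3) and the adjusted p from edgeR above each panel. Jak1 and Jak3 separate by genotype without overlap, in opposite directions, and replicate 1 of both genotypes is the lowest for Jak2.

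Jak1, the kinase shared by the receptors of the gamma chain, gp130 and interferon families, was at 407, 413 and 441 CPM in WT and at 381, 350 and 331 CPM in Cul5 cKO samples. Each Cul5 cKO sample lay below each WT sample. The means were 420 ± 17.7 CPM (SD, n = 3) and 354 ± 25.5 CPM (SD, n = 3), so that the log2 fold change was -0.25 (SE 0.0709, 95% interval -0.41 to -0.08), or -15.7% (edgeR adjusted p = 0.124). The exact two-sided permutation test gave p = 0.1, the smallest it can give for 3 samples against 3. Its lower level therefore did not pass the test over all genes, while the interval for this gene alone left out 0. The T cell marker sums given above were lower in the same 3 samples, and their part in the Jak1 values was not tested.

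Jak3, which binds the common gamma chain and is largely confined to blood cells, was at 220, 223 and 222 CPM in WT and at 259, 283 and 257 CPM in Cul5 cKO samples. The WT samples lay within a few CPM of each other and each Cul5 cKO sample lay above them. The means were 222 ± 1.6 CPM (SD, n = 3) and 266 ± 14.8 CPM (SD, n = 3), so that the log2 fold change was 0.26 (SE 0.0615, 95% interval 0.12 to 0.41), or 20% (edgeR adjusted p = 0.0937, exact permutation p = 0.1). Jak3 was higher in the Cul5 cKO samples, in which the T cell marker sums were lower, and a relation between these values was not tested. Jak3 shares reads with a neighbour: the last exon of Jak3-201 (404 bases, chr8:71690172-71690575) lies wholly within an exon of Insl3, an insulin-like hormone gene on the same strand, and 9.38% of the 31-base words of Jak3-201 also occur there. Insl3 was assigned 8.09 to 14 CPM. Reads of the shared exon that went to Jak3-201 could also be those of Insl3, so this value does not bound the uncertainty of the split. The sum of both genes had a log2 fold change of 0.26 (edgeR adjusted p = 0.0991), an alternative added after the data had been seen.

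Since Jak1 and Jak3 act as a pair on gamma chain receptors, their levels were also set against each other within each library, where the scaling between libraries cancels. The TPM of Jak1 divided by that of Jak3 was 1.53, 1.57 and 1.78 in WT and 1.19, 1.01 and 1.05 in Cul5 cKO samples. The mean was 1.63 ± 0.135 (SD, n = 3) in WT and 1.09 ± 0.0949 (SD, n = 3) in Cul5 cKO samples. The groups could not overlap, since Jak1 was lower and Jak3 higher without overlap in TPM, so this adds no separate result. Of the 6 ratios that 4 kinases allow, the groups of 1 other did not overlap, that of Jak3 to Tyk2, at 3.83, 4.08 and 3.7 in WT and 4.51, 5.96 and 5.57 in Cul5 cKO samples. Both ratios hold Jak3, whose groups did not overlap on their own. How often ratios of other gene pairs separate was not computed, so the number of ratios that did is not read as a result. These ratios are a description, made with the values of the single kinases known, and were not tested. Jak1 made up 44.7% to 48.6% of the summed TPM of the 4 kinases in WT and 37.2% to 44.1% in Cul5 cKO samples, and Jak3 made up 27.3% to 31.3% and 35.5% to 37%. Their sum ranged from 261 to 302 TPM in WT and from 262 to 285 TPM in Cul5 cKO samples, which overlapped.

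Jak2, the kinase of the IFN-γ, IL-12 and β common chain receptors, was at 111, 196 and 168 CPM in WT and at 95.2, 192 and 187 CPM in Cul5 cKO samples. The difference was between replicate numbers, not genotypes, with replicate 1 the lowest of both groups. The means were 158 ± 43.4 and 158 ± 54.5 CPM (SD, n = 3), and the log2 fold change was 0 (SE 0.298, 95% interval -0.70 to 0.70, edgeR adjusted p = 1). The interval is wide enough to hold a difference larger than that of Jak1 or Jak3. Without the replicate 1 samples it was 0.05 (SE 0.0847). Replicate 1 of both genotypes lay 0.85 below the other samples on the log2 scale. Of all genes tested, 12.2% had both replicate 1 samples below the other 4, and 1.8% did by as much as Jak2. The labels name no batch, so what sets replicate 1 apart was not tested.

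Among the partners of these kinases, both replicate 1 samples lay below the other 4 for Il2rg, for 3 of 7 STAT factors (Stat5a, Stat5b and Stat6), for 2 of 10 receptor chains that bind Jak1, for 6 of 18 inhibitors, for 1 of 7 chaperones and adaptors and for 0 of 7 and 0 of 3 receptor chains that bind Jak2 and Tyk2. They lay above the other 4 for 1 of 10 chains that bind Jak1 (Il4ra), 1 of 3 that bind Tyk2, 2 of 18 inhibitors and 1 of 7 chaperones and adaptors, beside 14.6% of all genes. Stat5a, a STAT activated by Jak1 and Jak3 after IL-2, was at 408, 687 and 582 CPM in WT and 396, 532 and 540 CPM in Cul5 cKO samples. Il4ra was at 711, 517 and 580 CPM in WT and 641, 446 and 435 CPM in Cul5 cKO samples. Among the Janus kinases Tyk2 was slightly higher in replicate 1 (0.16 on the log2 scale), and for Jak1 and Jak3 replicate 1 lay among the other samples.

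Tyk2, the kinase of the type I interferon and IL-12 receptors, was at 66.3, 64.4 and 66 CPM in WT and at 68.4, 56.2 and 54.4 CPM in Cul5 cKO samples. Cul5 cKO replicates 2 and 3 lay below the WT samples and Cul5 cKO replicate 1 above them. The means were 65.6 ± 1.04 and 59.7 ± 7.62 CPM (SD, n = 3), so that the log2 fold change was -0.14 (SE 0.0967, 95% interval -0.36 to 0.09, edgeR adjusted p = 0.463, exact permutation p = 0.4). Without the replicate 1 samples it was -0.23 (SE 0.0634, edgeR adjusted p = 0.0699), where 8.83% of 13055 genes were called. The same samples gave -0.32 for Jak1 (SE 0.065, edgeR adjusted p = 0.0392) and 0.28 for Jak3 (SE 0.0689, edgeR adjusted p = 0.0566). With replicate 1 against replicates 2 and 3 as a term in the fit of all 6 samples, both Jak1 (-0.25, edgeR adjusted p = 0.0489) and Jak3 (0.26, edgeR adjusted p = 0.0279) were called, together with 13.1% of all genes.

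Because kallisto divides a read among the transcripts it matches, the shares of transcripts rest on the bases that differ. These are few among the leading coding transcripts of Jak2, Jak3 and Tyk2. For Jak1-201, by contrast, 76.6% of the 31-base words are its own. Of the 23 transcripts, 2 were at 0 in all samples and 16 held at least 1% of the TPM of their gene. Jak1-201 led Jak1, with 93.5%, 92.1% and 85.2% of its TPM in WT and 95.4%, 94.7% and 95.6% in Cul5 cKO samples, and has 3734 words of 31 bases found in no other transcript. Jak2-202 led Jak2 at 68.3% to 83.4% and Jak2-204, with a later first exon and a shorter last exon, held the rest. Jak2-202 has 33 such unique words and Jak2-204 none.

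Jak3 was divided between Jak3-202, at 52.4%, 44.3% and 56.1% in WT and 50.1%, 49.3% and 46.1% in Cul5 cKO samples, and Jak3-201, at 36.9%, 44.2% and 31.4% in WT and 38.5%, 39.3% and 43.5% in Cul5 cKO samples. Both groups overlapped for each of them. The retained-intron transcript Jak3-204 held 9.29% to 11.7%. The TPM of Jak3-202 was 42.9, 38.2 and 44.1 in WT and 48.9, 51.6 and 42.9 in Cul5 cKO samples, and that of Jak3-201 was 30.1, 38.1 and 24.6 in WT and 37.6, 41.2 and 40.5 in Cul5 cKO samples. The groups of these transcripts overlapped, although those of their gene did not.

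Tyk2-203, the transcript without the 69 bases, led Tyk2 with 83.5%, 85.8% and 45.7% of its TPM in WT and 87.7%, 90% and 85.9% in Cul5 cKO samples. WT replicate 3, the shallow library, stood far below the other 5. Tyk2-201, which carries the 69 bases, held 3.09%, 3.17% and 32.2% in WT and 3.76%, 0% and 6.65% in Cul5 cKO samples. It was assigned 50.4, 48 and 92.3 reads in WT and 60.1, 0 and 82.7 reads in Cul5 cKO samples, so the library with about 6 times fewer reads gave it the most. Of Tyk2-201, Tyk2-203 and Tyk2-206 none has a unique word. The words that tell the longer form from Tyk2-203 are 93 that touch the stretch, some of them also in Tyk2-205, and 24 across the shorter junction, some of them also in Tyk2-202. Tyk2-201 differs from Tyk2-203 in its first exon too, and 210 words of Tyk2-203 and Tyk2-206 are not in Tyk2-201, so the division between Tyk2-201 and Tyk2-203 does not rest on this junction alone. The Tyk2 sum over transcripts in WT replicate 3 was 261 reads, or 66 CPM, beside 66.3 and 64.4 CPM in the other WT samples. The gene sum therefore did not move with this division.

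Jak1-204, a noncoding transcript of 589 bases within Jak1 with 27 unique words, was assigned 4.8, 14.1 and 14.7 reads in WT and 0 in all 3 Cul5 cKO samples, where a count of 0 allows up to 3 reads. These are under 1% of the reads of Jak1, but the short transcript made up 8.73% of its TPM in WT replicate 3. Exact permutation tests compared the shares of the 16 transcripts. The groups did not overlap for 3 of them, Jak1-201, Jak1-204 and Tyk2-203, or 18.8%, against 10.4% of 52462 transcripts compared in the same way over all tested genes. All 3 had an exact permutation p = 0.1, the smallest possible, and an adjusted p of 0.533 over the 16. Without WT replicate 3 the difference in the share of Tyk2-203 was 3.21 percentage points (exact permutation p = 0.2) rather than 16.2, and that of Jak1-201 was 2.46 rather than 4.98. As a share of estimated counts in place of TPM, Jak1-201 held 99.2% in WT and 99.6% in Cul5 cKO samples on average, a difference of 0.454 percentage points (exact permutation p = 0.1), and the difference for Tyk2-203 was 14.8 (exact permutation p = 0.2). WT replicate 3 had the lowest share of the leading transcript in 48.7% of 10722 genes with several transcripts, and for 13.5% of 7147 such genes of at least 10 TPM that share was 20 percentage points or more below all other samples, as for Tyk2.

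**Figure D3:**
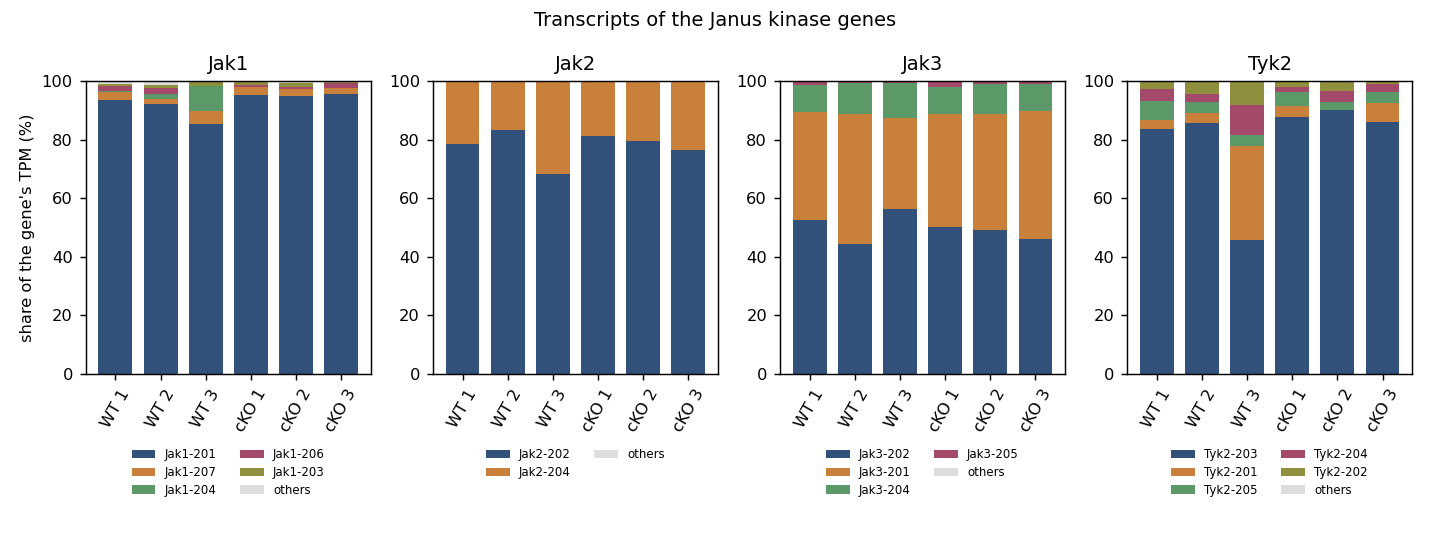
Share of the TPM of each Janus kinase gene (%) held by its transcripts in the 3 WT and 3 Cul5 cKO (cKO) samples, for transcripts with at least 1% over all samples, the others in grey. In WT 3 the leading transcripts Jak1-201, Jak2-202 and Tyk2-203 hold their smallest shares, 85.2%, 68.3% and 45.7%.

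The deposited gene-level table, in TMM-normalized log2 CPM, did not follow the gene sums for every kinase. For Jak1 and Jak3 the table and log2 TPM of the gene differed by a constant within an SD of 0.0207 and 0.0205 over the 6 samples, close to the median SD of 0.021 for the 10749 genes compared. For Jak2 the SD was 0.0853 with all its transcripts and 0.0208 with Jak2-202, which took nearly all the reads of the best-matching pair, Jak2-201 and Jak2-202. For Tyk2 the table held 1.29, 1.24 and 4.6 in WT and 1.56, -3.21 and 2.03 in Cul5 cKO samples, an SD of 2.46 from the gene. Over the 5 samples in which Tyk2-201 had reads, the SD between the table and log2 TPM of Tyk2-201 alone was 0.0162, and in the remaining sample, Cul5 cKO replicate 2, the table was at its lowest value. The Tyk2 entry of the table thus tracked the longer form shown above, which held 3.09% to 6.65% of Tyk2 in the 4 other samples with reads outside WT replicate 3. Of the genes compared, 479 (4.46%) lay more than 1 log2 unit from their own median offset in a sample, and Tyk2 ranked 77 among them. limma on the table gave a log2 fold change of -2.25 for Tyk2 (SE 1.52, adjusted p = 0.485), against -0.14 for the gene sums, so the table was not used for the level of Tyk2.

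**Figure D4:**
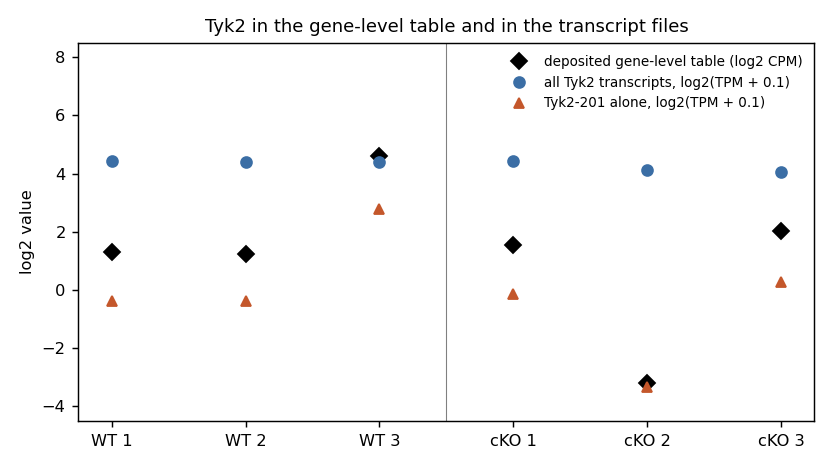
Tyk2 in the deposited gene-level table (log2 CPM, diamonds), as the sum of its transcripts (circles) and as Tyk2-201 alone (triangles), the last 2 as log2(TPM + 0.1), in the 3 WT and 3 Cul5 cKO (cKO) samples. The table moves with Tyk2-201, from -3.21 to 4.6, while the sum stays between 4.07 and 4.44.

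The partners of the Janus kinases were taken from lists by role. Beside each list stand the shares over all genes tested, of which 1.03% were called and 21.3% had an unadjusted p under 0.05. Of 10 tested receptor chains that bind Jak1, 0 were called (1 at an unadjusted p under 0.05) and the median log2 fold change was -0.19, with 7 of 10 negative. Il4ra, the IL-4 receptor chain that carries Jak1, had a log2 fold change of -0.25 (SE 0.175, edgeR adjusted p = 0.454). With replicate 1 as a term in the fit it was called lower (-0.26, SE 0.0642, edgeR adjusted p = 0.0397), where 13.1% of all genes were called. Il9r, the IL-9 receptor chain, was the lowest of this list, at 8.07, 3.59 and 4.55 CPM in WT and 2.13, 1.62 and 1.87 CPM in Cul5 cKO samples (log2 fold change -1.55, edgeR adjusted p = 0.0852), and Il10ra the highest at 0.38 (edgeR adjusted p = 0.5). Il2rg, the gamma chain that Jak3 binds, was at 201, 260 and 247 CPM in WT and 189, 256 and 266 CPM in Cul5 cKO samples, with a log2 fold change of 0 (SE 0.15, 95% interval -0.35 to 0.35). Jak3 thus had higher values in Cul5 cKO samples beside overlapping values of its receptor chain. The difference between these fold changes was not tested.

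Of 7 tested receptor chains that bind Jak2, 0 were called (1 at an unadjusted p under 0.05), with a median of 0.12. Csf2rb2, a β chain for IL-3, had the largest fold change, 3.93 (edgeR adjusted p = 0.18), through Cul5 cKO replicate 2 alone, where it was at 22.3 CPM beside 0.427 to 1.33 CPM elsewhere. This is the library with the highest myeloid sum, 56.1 CPM beside 2.78 to 8.44 CPM, and the part of that sum in the Csf2rb2 value was not tested. Il12rb2, the IL-12 receptor chain on which Jak2 sits, had the most negative value, -1.06 (edgeR adjusted p = 0.448), which ranged from -1.96 without Cul5 cKO replicate 1 to -0.33 without WT replicate 1. Jak2 itself was at 192 CPM in Cul5 cKO replicate 2, the library with the Csf2rb2 peak, beside 187 and 196 CPM in Cul5 cKO replicate 3 and WT replicate 2.

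Of 3 tested receptor chains that bind Tyk2, 1 was called (2 at an unadjusted p under 0.05), where 1.03% of all genes were called and 21.3% had such a p. The most negative log2 fold change of the 3 was -0.35 (edgeR adjusted p = 0.0907), with each Cul5 cKO sample below each WT sample. Il12rb1, the IL-12 receptor chain on which Tyk2 sits, rose from 29, 27.9 and 27.3 CPM in WT to 45.1, 37.2 and 45.9 CPM in Cul5 cKO samples (log2 fold change 0.60, SE 0.0988, edgeR adjusted p = 0.0435). It was the only partner called among the lists, and the call was lost in some alternatives: with any single sample other than Cul5 cKO replicate 2 left out, its edgeR adjusted p was 0.0518 to 0.186 with a log2 fold change of 0.55 to 0.63. Of the 7 STAT factors, the substrates of the kinases, 0 were called (2 at an unadjusted p under 0.05) and the median was -0.12. Stat4, which IL-12 activates through Jak2 and Tyk2, had the most negative value, at 68.4, 43 and 53.9 CPM in WT and 35.4, 30.6 and 24.9 CPM in Cul5 cKO samples (log2 fold change -0.86, edgeR adjusted p = 0.0862). Stat3 had the highest, 0.15 (edgeR adjusted p = 0.324, but -0.01 on log2 TPM), and Stat6, Stat5b and Stat5a, which act below Jak1 and Jak3, had 0.09, -0.12 and -0.19.

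Of 18 tested inhibitors of the pathway, 0 were called (5 at an unadjusted p under 0.05), with a median of 0.05. Their groups did not overlap for 8 of 18, with 6 higher and 2 lower in Cul5 cKO samples, beside 27.5% of all genes (14% higher and 13.5% lower). On log2 TPM 7 of the 18 log2 fold changes were positive and 11 negative. Cish and Socs2, SOCS-box proteins that restrain cytokine receptors, had log2 fold changes of 0.12 (edgeR adjusted p = 0.277, but -0.03 on log2 TPM) and 0.34 (edgeR adjusted p = 0.162), Socs3 the highest value, 0.43 (edgeR adjusted p = 0.162), and Pias1, a SUMO ligase, the lowest, -0.35 (edgeR adjusted p = 0.0928). Of 7 chaperones and adaptors, 0 were called (3 at an unadjusted p under 0.05), the median was 0.16 and 6 of 7 were positive, or 4 of 7 with counts scaled from TPM and 3 of 7 on log2 TPM. Hsp90aa1, a chaperone that folds kinases, had the highest value of them, 0.22 (edgeR adjusted p = 0.142, but -0.06 on log2 TPM), and Stam, an adaptor that binds Jak2 and Jak3, the lowest, -0.01. Of 22 tested cytoplasmic tyrosine kinases outside the family, 0 were called (4 at an unadjusted p under 0.05), with a median of 0.09. For all these lists, 21.3% of all genes had an unadjusted p under 0.05. Among these Syk had the highest value, 2.09 (edgeR adjusted p = 0.217), again with its peak of 11.3 CPM in Cul5 cKO replicate 2, and Matk the lowest, -0.37 (edgeR adjusted p = 0.335).

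**Figure D5:**
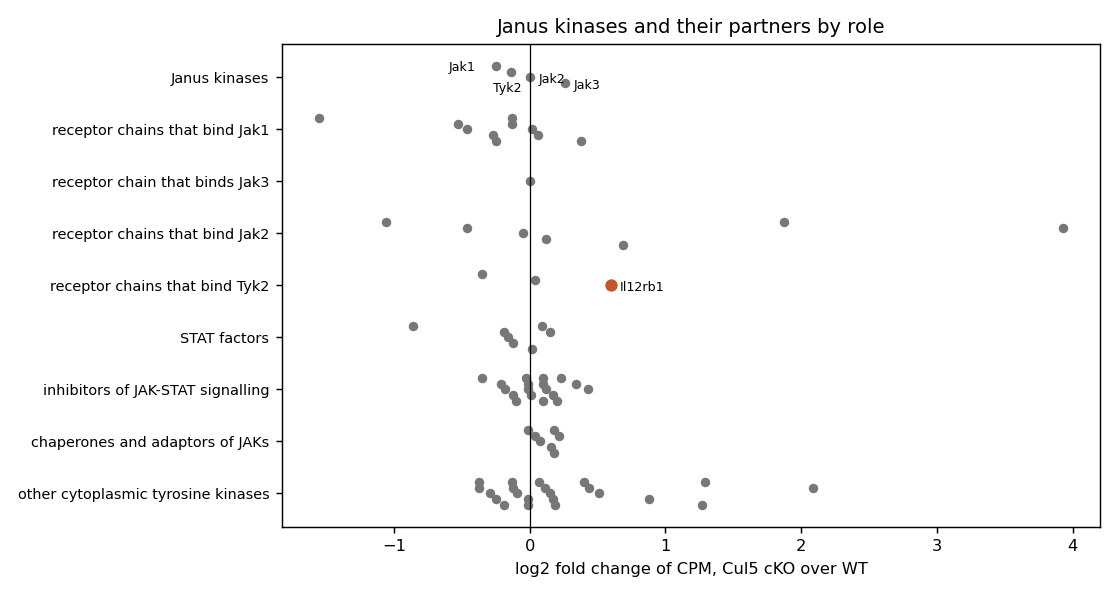
Log2 fold change of CPM (Cul5 cKO over WT) of each tested gene of the Janus kinase family and of its partners, in rows by role, from edgeR; the vertical position within a row only separates the points. Il12rb1 (orange, 0.60) is the only gene called at an adjusted p under 0.05, and the 4 kinases lie between -0.25 and 0.26.

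The genes whose log2 CPM followed each kinase most closely over the 6 samples were taken from 11615 tested genes of at least 1 CPM. For Jak1 they were Gna12, Bptf and Mxd4 (Pearson r of 0.999, 0.998 and 0.998), for Jak2 Ptger4, Trib1 and Slfn2 (0.997 each), for Jak3 St7, Kdm8 and Acsl6 (0.983, 0.983 and 0.981) and for Tyk2 Elmod3, Cplane1 and Smug1 (0.991, 0.99 and 0.989). With 6 samples that share genotype and replicate number, such values are common: 619, 319, 193 and 269 genes had an r above 0.9 with Jak1, Jak2, Jak3 and Tyk2. Of these 12 neighbours Acsl6, an acyl-CoA synthetase, was called (log2 fold change 1.5, edgeR adjusted p = 0.0159), a call lost when Cul5 cKO replicate 3 or either of WT replicates 2 and 3 was left out (edgeR adjusted p 0.0816 to 0.0958).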

How the data were processed

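Poly-A RNA of 3 WT and 3 Cul5 cKO cultures was read in single-end reads of 50 bp on a BGIseq500. Per the study's methods and the submitters' processing notes, the authors ran kallisto 0.46.2 against the mouse transcripts of Ensembl (GRCm38) and deposited, per sample, estimated counts (not normalized) and TPM. The authors also deposited a gene-level table of log2 CPM after TMM normalization with edgeR 3.34.0. Its columns for a fold change and a p-value hold the authors' own comparison and were not used. Its filter on genes and the strand setting are not given in the sources used here, so reads from opposite strands of a locus may not be told apart. Whether this affected any of the kinases was not tested.

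Transcripts were matched without version to GENCODE vM21 (116640 of 119414, 97.7%) and summed to genes. After rounding, the sums were tested with edgeR 4.0.16 under R 4.3.3 (expression filter and TMM at their defaults, quasi-likelihood test, Benjamini-Hochberg adjustment over 12925 genes, called at an adjusted p under 0.05). CPM use TMM-adjusted library sizes, and SD are over 3 samples. Each SE is the log2 fold change divided by the root of the F statistic. Exact permutation tests are two-sided. Transcript shares were compared for transcripts with at least 1% of the TPM of their gene, with p adjusted over 16 transcripts. Sequence words of 31 bases were counted over the transcripts of GENCODE vM21, and sequences were read from its GRCm38 transcripts. The offset between the table and log2(TPM + 0.1) is the median over genes in each sample.

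Genes are named by a rule: each Janus kinase, each called gene of a partner list, otherwise the largest and the smallest log2 fold change of the list among genes of at least 1 CPM, 7 partners of Jak1 and Jak3 (Il4ra, Il2rg, Stat6, Stat5a, Stat5b, Cish and Socs2), Cul5, and the 3 genes of highest correlation with each kinase in log2 CPM with a prior count of 2. The members and lists were chosen with earlier results of these data known. Alternatives used DESeq2 1.42.0 and limma 3.58.1, other normalizations and filters, counts scaled from TPM, coding transcripts only, the gene-level table, log2(TPM + 1) and log2(TPM + 0.1), thinned libraries, sample weights, the replicate number, and each sample left out. The fit was tested on simulated data. Python 3.11.15, pandas 2.3.3, numpy 2.4.6 and matplotlib 3.10.9 were also used.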

Additional observations from a re-analysis of the deposited data

How the results depend on the processing

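The log2 fold change of Jak1 stayed negative and that of Jak3 positive under all 21 and 22 alternatives, from -0.32 to -0.20 (adjusted p 0.0296 to 0.373) and from 0.22 to 0.31 (adjusted p 0.00945 to 0.288). Calls were gained for Jak1 with replicates 2 and 3 alone (-0.32), replicate 1 as a term (-0.25) and voom with sample weights (-0.30), and for Jak3 with DESeq2 (0.28), replicate 1 as a term (0.26) and voom with sample weights (0.28). Jak2 lay near 0 on either side: -0.04 with library size alone, both forms of log2 TPM, replicate 1 as a term and thinning, -0.03 with coding transcripts and -0.01 with voom, with adjusted p from 0.506 to 0.996 over its 21 alternatives. Tyk2 ranged from -2.25, on the gene-level table, to -0.07 (adjusted p 0.0699 to 0.815). Leaving out single samples, the values ranged from -0.30 to -0.20 for Jak1, -0.21 to 0.27 for Jak2, 0.22 to 0.29 for Jak3 and -0.24 to -0.07 for Tyk2, and no kinase was called.

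The number of genes called, 133, was 228 without a filter, 62 with counts scaled from TPM, 84 with coding transcripts, 748 with DESeq2, 42 on the table, 27 and 30 with the pseudocounts of 1 and 0.1 TPM, 1688 with replicate 1 as a term, 1153 with replicates 2 and 3 alone and 1259 with voom. It was between 2 and 316 with a sample left out: 316 if WT replicate 1 was dropped, 2 if WT replicate 2 or WT replicate 3 was, 45 if Cul5 cKO replicate 2 was and 3 if Cul5 cKO replicate 3 was. By direction, 79 were higher and 54 lower, against 72 and 77 with library size alone. The table moved the median of all genes to -0.14. The causes were not tested.

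Of the named partners, Il12rb1 stayed positive under all alternatives (0.55 to 0.70) but was not called in 11 of 21 (adjusted p up to 0.186), among them all fits on TPM, the table, coding transcripts and thinning. Some partners not called in the main fit gained calls in alternatives. They were Stat4 in 6, Socs2 in 5, Il9r and Pias1 in 4 each, and Il4ra and Hsp90aa1 in 1 each. Replicate 1 as a term called Stat4 (adjusted p 0.00638), Il9r (0.0143), Socs2 (0.0175), Pias1 (0.0274) and Il4ra (-0.26, adjusted p 0.0397). That fit called 13.1% of all genes. Several that were not called in the main fit changed sign. Cish did on the table (-0.01) and log2 TPM (-0.03), and Stat3 on log2 TPM (-0.01). Hsp90aa1 did with counts scaled from TPM (-0.02), on the table (-0.04) and log2 TPM (-0.06). Il2rg did with library size alone (-0.04), coding transcripts (-0.03), the table (0), log2 TPM (-0.02), and the block or replicate 1 as a term (-0.01). Stam did without a filter (0.01), with DESeq2 and thinning (0.02) and with replicate 1 as a term (0). With a sample left out Il2rg ranged from -0.10 to 0.15 and Stam from -0.07 to 0.06.

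Samples with the same replicate number deviated together for numbers 1 and 2 (r = 0.37 and 0.206 over genes) but not for 3 (0.0245). Number 3 includes the shallow WT replicate 3, so these values cannot decide whether the numbers mark pairs. The main fit used no block because the study's methods name none. With the replicate block, 848 genes were called, and the kinases had log2 fold changes of -0.25 for Jak1 (adjusted p 0.0928), -0.04 for Jak2, 0.26 for Jak3 (adjusted p 0.0539) and -0.13 for Tyk2, none called. Of the named partners, Il9r (adjusted p 0.0225), Stat4 (0.0138), Pias1 (0.0325) and Socs2 (0.0395) were called with the block in addition to Il12rb1 (0.015).

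The differences in the share of the leading transcript, in percentage points, ranged with a sample left out from 2.46 to 6.6 for Jak1, -1.77 to 5.78 for Jak2, -5.79 to 0.111 for Jak3 and 3.21 to 23.3 for Tyk2. Leaving out WT replicate 3 turned the direction for Jak2 and Jak3. As shares of estimated counts the differences were 0.454, 2.14, -2.34 and 14.8 for Jak1, Jak2, Jak3 and Tyk2, against 4.98, 2.42, -2.48 and 16.2 as shares of TPM. WT replicate 3 was shallow, with 261 to 1741 reads per kinase, and the permutation tests could not reach 0.05.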
